A study of Caenorhabditis elegans with 2 samples.

Results

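The tRNA genes of chromosome X are all 276 genes with the biotype tRNA on that chromosome in the Ensembl annotation of WBcel235 (build ce11), out of 46926 annotated genes of every kind. They were chosen by biotype and position, with no measured value in the rule. Earlier results of these data were known when the choice was made. CEH-40 is a homeodomain protein of the PBC class, the worm relatives of fly Extradenticle and vertebrate PBX. Its occupancy was measured by ChIP-seq with an anti-GFP antibody after sonication. The animals were whole young adults of strain OP232, collected at 76 h after bleaching and L1 starvation. Both samples carried the insertion wgIs232, a ceh-40 transgene tagged with TY1, EGFP and FLAG that also holds unc-119, in worms with the unc-119 allele ed3, so the protein measured is the transgenic one. There were 2 biological replicates and 1 group, no untagged strain was analysed here, and the depth of each library is unknown because the files list peaks without reads. A whole worm mixes all tissues, so a signal cannot be assigned to a cell type.

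A tRNA gene is transcribed by RNA polymerase III from a promoter that lies inside the gene. TFIIIC binds an upstream element, box A, and a downstream element, box B, and places TFIIIB before the start, and a run of T residues ends transcription. In C. elegans the tRNA genes are spread over all chromosomes, many sit in introns of protein-coding genes, and chromosome X holds an unusually large share of them. Each isotype, the set of tRNAs that carry 1 amino acid, is encoded by many genes, and a good number of these are identical to the last base.

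The sequences that bear on the results are shown here, read from the RefSeq WBcel235 genome on the gene strand, with box A and box B in capitals. C04A11.t1 (chrX:13665555-13665673, forward) had the strongest ranked signal of the set and is longer than most because it holds an intron. T08A9.t1 (chrX:7323753-7323824, forward) has the sequence shared by 7 alanine genes on X. C14F11.t1 (chrX:6220070-6220142, reverse) has that of 10 arginine genes, all on X, whose signals spread widely. C49F5.t1 (chrX:11993521-11993592, reverse) has that of 8 histidine genes, 6 of which lie side by side. C16B8.t1 (chrX:3969556-3969627, forward) has the sequence with the most copies on X, 13 proline genes. ZK678.t4 (chrX:15748316-15748387, reverse) is an annotated pseudogene with most of that proline sequence.
C04A11.t1: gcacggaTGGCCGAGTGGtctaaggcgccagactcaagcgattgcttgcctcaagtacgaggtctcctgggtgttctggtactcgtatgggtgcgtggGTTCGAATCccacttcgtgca
T08A9.t1: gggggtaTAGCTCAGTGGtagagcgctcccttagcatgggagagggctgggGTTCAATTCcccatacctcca
C14F11.t1: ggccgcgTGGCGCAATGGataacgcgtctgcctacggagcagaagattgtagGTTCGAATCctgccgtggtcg
C49F5.t1: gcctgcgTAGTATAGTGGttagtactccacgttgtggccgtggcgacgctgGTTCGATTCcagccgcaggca
C16B8.t1: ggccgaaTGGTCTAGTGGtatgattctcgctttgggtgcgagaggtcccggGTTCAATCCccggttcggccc
ZK678.t4: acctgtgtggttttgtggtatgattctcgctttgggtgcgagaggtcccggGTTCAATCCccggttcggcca

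The 276 genes were 64 to 120 bases long, with a median of 72, and 12 had an annotated intron. They lay on both strands, 136 forward and 140 reverse, and encoded 20 named isotypes, with 3 genes undetermined. Box B, searched as GTTCNANNC, was present on the gene strand in 268 genes, and a search of both strands gave the same 268 genes, or 97.1%. Of 246096 windows of 72 bases tiling chromosome X, 2.64% held box B on either strand. Box A was found within 30 bases of the start in 255 genes, and 247 genes had both boxes. A run of TTTT followed within 30 bases in 273 genes. In this respect the X genes were much like the 336 tRNA genes on the other nuclear chromosomes, of which 319 had box B and 332 had the T run.

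A gene was called bound when a summit of the authors' thresholded list of both replicates, which ends at an irreproducible discovery rate (IDR) of 0.01, lay within 1 kb of its start. By that rule 156 of 276 X tRNA genes were bound, or 56.5% (95% Wilson interval 50.6 to 62.2%), and 120 of 336 tRNA genes elsewhere, or 35.7% (30.8 to 41.0%). Of all nuclear genes 2.99% were bound. Intervals in this text cover counting error only, and genes that share a summit are not independent. The other deposited lists gave the same order at lower counts. The conservative list reached 146 X tRNA genes and 108 elsewhere, with 2.54% of all nuclear genes. Of those 146 X genes, 137 were bound by the rule above, and 9 were among the 120 X genes not bound by it. The list of replicate 1 reached 64 X tRNA genes and 38 elsewhere against 1.03% of all nuclear genes, and the list of replicate 2 reached 80 and 33 against 1.04%. Without replicate 2 the X share was 11.9 percentage points above that elsewhere, and without replicate 1 it was 19.2 points above.

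Summits sat on the tRNA genes themselves. Of the 121 pooled summits that lay near an X tRNA gene, 120 were within 200 bp of the nearest start, 95 within 50 bp, and 91 fell inside the gene. The median summit was 23 bp downstream of the start, with the middle of the distribution between 5 and 41 bp, and 23 summits lay upstream. Box A begins at the 8th base of the tRNA genes printed above, the pseudogene aside. The range from 5 to 41 bp takes in box A, and the median of 23 bp lies just downstream of it. Sonicated fragments are longer than the gene, and the 2 boxes cannot be told apart at this resolution. A summit reached a single tRNA gene in 83 cases, 2 genes in 27 and at least 3 genes in 11, with 5 genes at most. Accordingly 129 of the 156 bound genes had a summit within 200 bp, called here an own summit, and for 119 of them no other tRNA gene was nearer to it. The other 27 were bound only through a summit whose nearest tRNA gene was a neighbour.

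**Figure D1:**
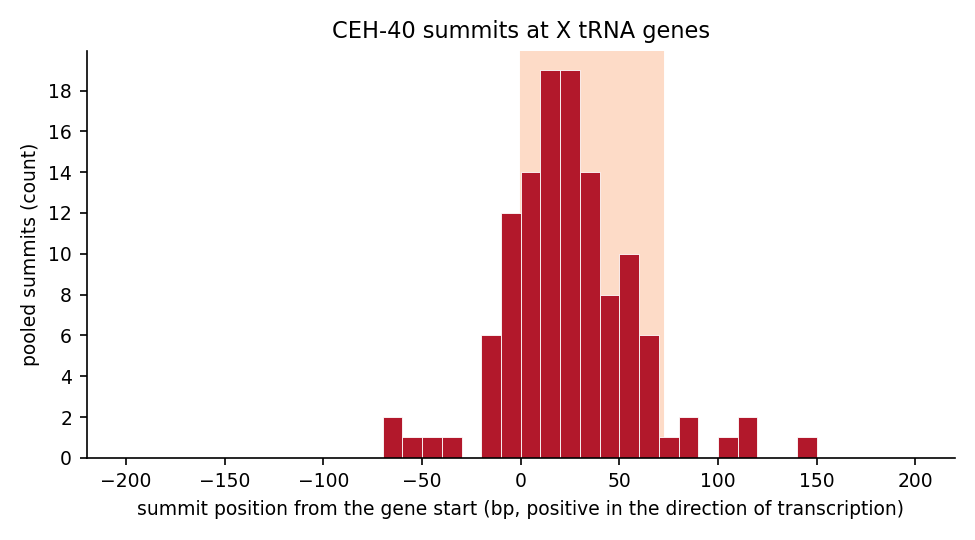
Positions of pooled summits relative to the start of the nearest X tRNA gene, in bins of 10 bp, with the median gene length of 72 bases shaded. The summits gather just downstream of the start, with a median of 23 bp and 91 of 121 inside a gene; 1 summit past 200 bp is not drawn.

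The ranked list, which keeps peaks below the threshold, gave a graded value for most genes. Its signal is the authors' own value per peak, with no stated unit, and is used here to order genes within that list. A peak summit lay within 200 bp of 246 of the 276 X tRNA genes, and their strongest signals ran from 2.74 to 146 with a median of 57.9. Elsewhere 271 of 336 tRNA genes had such a peak, with a median of 48.8 and a maximum of 127. The medians were 20.6 over 16733 nuclear genes of any kind and 19.6 over 1301 protein-coding genes on X with a ranked peak. Genes on X filled 15 of the 20 highest places among all nuclear tRNA genes and 37 of the highest 50, while making up 45.1% of the tRNA genes.

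The strongest X genes came from many isotypes. The leucine gene C04A11.t1 had a signal of 146, and its matched peaks had signals of 81.2 in replicate 1 and 61.7 in replicate 2. The threonine gene R01H5.t1 followed at 144, with 65.8 in replicate 1 and 76.2 in replicate 2. The lysine gene K11E4.t5 came next at 141, with 67.8 and 70.2 in replicates 1 and 2. All 3 were strong in both replicates, and neither replicate was the higher at all of them. Then came the valine gene R04D3.t2 at 128, the cysteine gene F42D1.t1 at 127 and the glutamate gene C28G1.t1 at 125. C28G1.t1 was the only X tRNA gene that overlapped an exon, that of the protein-coding gene C28G1.2. The list of 10 closed with the alanine genes F34H10.t1 at 120 and F48E3.t1 at 117 and the neighbouring glycine genes T10B10.t1 and T10B10.t2, which shared a peak of 114.

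The 129 genes with an own summit had strongest ranked signals within 200 bp from 46.6 to 146, with a median of 77.1. That strongest peak can be a neighbour's, so the range is not that of the own summits. At F46G11.t1 the summit inside the gene had a signal of only 8.12, and its ranked value came from the peak at F46G11.t2. Of the 120 genes not bound, 95 still had a ranked peak, with signals from 4.32 to 73.0 and a median of 34.7, and 25 had none. These strongest values of the 2 classes overlapped between 46.6 and 73.0, and the list is thresholded on IDR, not on signal. Just outside the rule stood 3 valine genes, F49E2.t1 with a signal of 73.0, F39B1.t1 in an intron of piki-1 with 62.4 and F59C12.t3 with 62.4. Just inside it, the lowest of the 151 bound genes with a ranked peak were K01A12.t3 with 9.59, K01A12.t1 with 7.36 and F12D9.t6 with 2.74, and all 3 were bound only through a neighbour's summit.

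**Figure D2:**
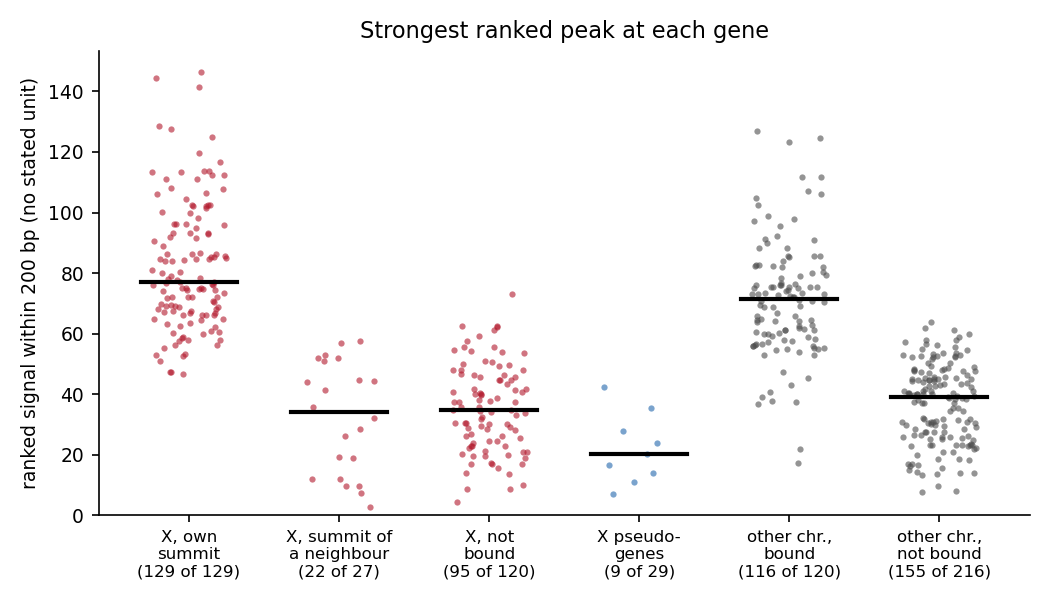
Strongest ranked signal within 200 bp of each gene start, 1 point per gene with a ranked peak, and a black line at the median; the counts below each class are genes with a ranked peak of all genes in the class. By this measure, which can take a neighbour's peak, X genes with an own summit range from 46.6 to 146, while the 9 X pseudogenes with a peak stay at or below 42.5.

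Chromosome X also holds 29 pseudogenes named as tRNA genes, and none had a summit nearby. Of the 29, 0 were bound, which allows a share of up to 10.3% by the limit of 3 counts and 11.7% by the Wilson interval, and 9 had a ranked peak, with a median signal of 20.2 and a maximum of 42.5. That median was close to the 20.6 of nuclear genes in general. Pseudogene sequence was also less unique: fewer than 50% of the 50-base words in the gene and 100 bases on each side occurred once in the genome for 12 of the 29 pseudogenes, 6 of them with none, and for 5 of the 276 tRNA genes. The part of this in the absence of summits was not tested. Box B remained in 17 of them, box A in 22 and the T run in 20. ZK678.t4 differs from the proline gene C16B8.t1 at 8 of 72 positions, which are G1A, G2C, C4T, A6T, A7G, C12T, A14T and C72A (gene base first, positions counted from 1 at the 5′ end of the gene, pseudogene base last). It kept box B, its box A did not match, and it had no ranked peak, whereas C16B8.t1 was bound with a signal of 85.4. Of the 13 X genes with that proline sequence, 8 were bound. ZK678.t3, which has that sequence and lies in the same host gene as ZK678.t4, srxa-9, was not bound, with a signal of 20.2. Compared base by base with X genes of equal length, the next closest pseudogene was W03H1.t1, at 13 differences from the bound arginine gene F28H6.t1. It kept box A, box B and the T run with 94.2% unique words, and had no ranked peak. Pseudogenes with no X gene of their length were not compared, and gaps were not allowed, so a closer match could be missed. Among the X tRNA genes themselves 148 of 255 with box A were bound (58.0%, interval 51.9 to 63.9%), and 8 of 21 without it (38.1%, 20.8 to 59.1%). These intervals overlap.

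The replicates ordered the X tRNA genes in much the same way. Paired peaks were present at 242 genes through 225 distinct peaks, with median signals of 27.6 in replicate 1 and 30.9 in replicate 2. The Spearman coefficient across those peaks was 0.70, a description across peaks that share 2 libraries, against 0.57 over 252 peaks at tRNA genes elsewhere and 0.22 over all 77932 paired peaks. The ratio of replicate 1 to replicate 2 had a median of 0.891, and 156 of the 225 peaks lay within 1.5-fold of it. Calls from single replicates were fewer: 40 genes were bound in both replicate lists, 24 only in that of replicate 1, 40 only in that of replicate 2, and 52 of the 156 in neither. Among bound genes the ratio was smallest at the arginine gene C14F11.t1, with 14.0 in replicate 1 and 44.8 in replicate 2. It was largest at the valine gene T01B4.t3 in twk-21, a potassium channel gene, with 27.9 in replicate 1 and 8.67 in replicate 2; T01B4.t3 was bound only through a neighbour.

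**Figure D3:**
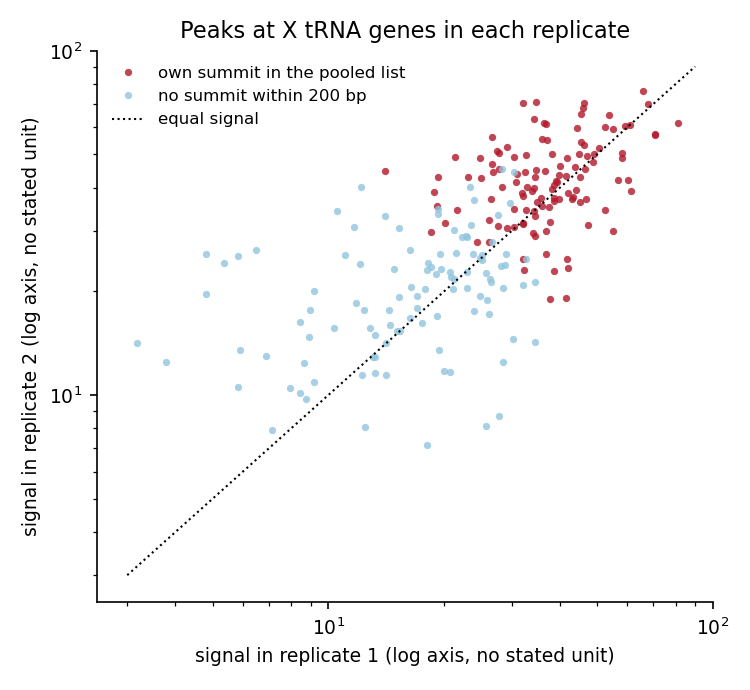
Signal of each distinct paired peak at an X tRNA gene in replicate 1 and replicate 2, on log axes, with a dotted line at equal signal. Peaks with an own summit in the pooled list lie toward the upper right, and 77 of 225 peaks are higher in replicate 1.

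Isotypes differed in how many of their genes were bound. The alanine genes stood near the top with 12 of 13 bound on X and 10 of 21 elsewhere, and with median signals of 95.8 on X and 54.7 elsewhere. All 7 cysteine genes were bound on X and 3 of 6 elsewhere, but only 5 of the 7 had an own summit. Lysine genes followed with 14 of 18 bound on X and 15 of 28 elsewhere. At the other end, 2 of 8 methionine genes, 3 of 9 histidine genes and 2 of 6 phenylalanine genes were bound on X. Among 20 isotypes with at least 3 genes in both places, the share was higher on X in 17 and lower in 3, which were methionine, phenylalanine and valine. For tyrosine 5 of 8 genes were bound on X and 0 of 11 elsewhere, and 3 of the 5 had an own summit. The intervals of the 2 places overlapped for every compared isotype except tyrosine. Counting own summits only, the tyrosine intervals overlapped as well, with 3 of 8 on X (37.5%, 13.7 to 69.4%) and 0 of 11 elsewhere (up to 25.9%). Those of alanine then did not, with 12 of 13 on X (92.3%, 66.7 to 98.6%) and 8 of 21 elsewhere (38.1%, 20.8 to 59.1%). For the rest the count over isotypes describes a direction and not a difference for each. Weighting the isotypes elsewhere by their number on X left the gap at 21.2 percentage points, against 20.8 unweighted.

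**Figure D4:**
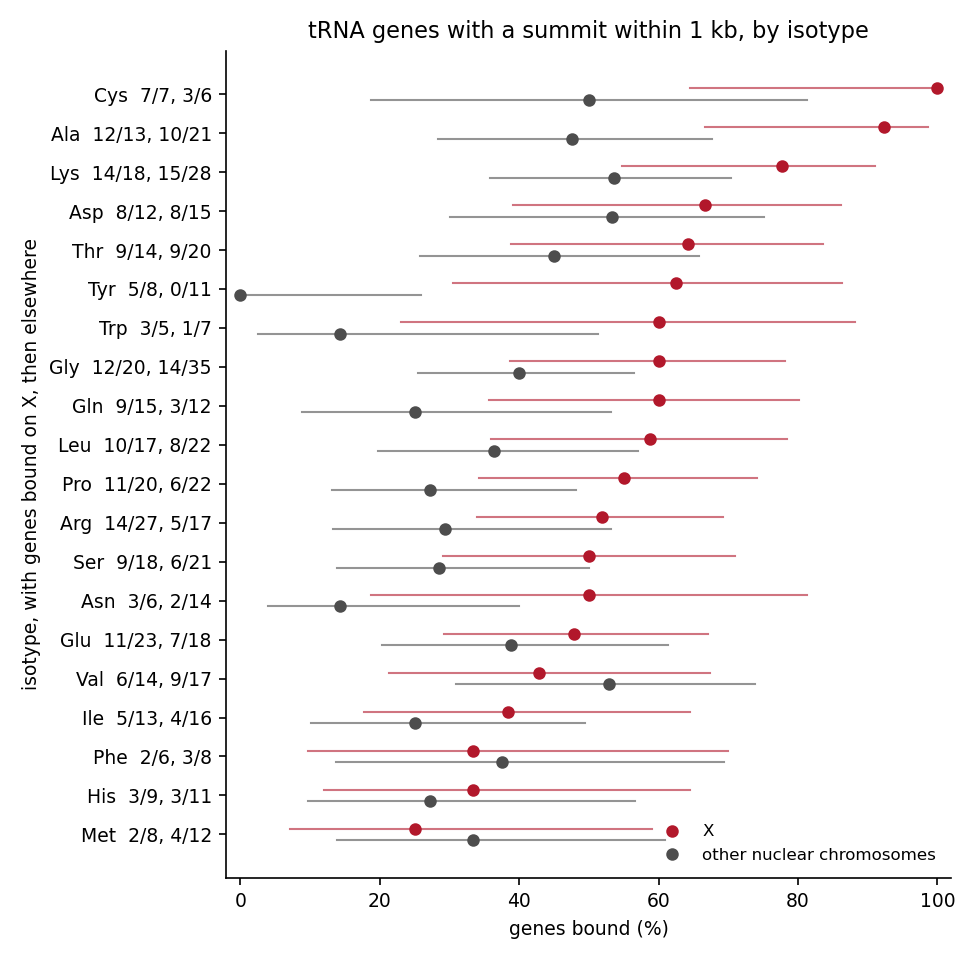
Percentage of tRNA genes bound for each isotype on X and on the other nuclear chromosomes, with 95% Wilson intervals as lines. The X value lies to the right for 17 of 20 isotypes, with the exceptions valine, phenylalanine and methionine.

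Genes with the same sequence did not share the same signal. The 276 genes had 106 distinct sequences, and 33 of these occurred at least 2 times on X. Of the 33, 25 had both bound and not bound copies, 6 had all X copies bound and 2 had none. The 7 identical alanine genes were strong as a group. F34H10.t1 had a signal of 120, F48E3.t1 of 117, F15G9.t2 of 112, T08A9.t1 of 111, C11E4.t1 of 78.2, T18D3.t1 of 77.1 and C56G3.t1 of 57.7. The peak counted for F15G9.t2 had its summit inside the neighbouring alanine gene F15G9.t1, which has another sequence, and its value enters the X median below. Only C56G3.t1, in an intron of the neuropeptide receptor gene npr-8, was not bound. Their 8 identical copies on other chromosomes ran from 30.6 to 91.3 with a median of 55.5, against 111 on X. Another group, 5 identical lysine genes, was bound at every copy, from 57.8 at C25F6.t4 to 111 at C33G3.t2.

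The 10 identical arginine genes ranged over an order of magnitude. C18A11.t2 was the highest with a signal of 104, F09B9.t1 had 72.1, T01C1.t1 had 19.7 and K01A12.t3 was the lowest with 9.59. C18A11.t2 and F09B9.t1 had own summits, T01C1.t1 was not bound, and K01A12.t3 was bound only through a neighbour. Since the gene bodies are the same, the 60 bases before each start are shown for these 4 genes, at chrX:8036758-8036817 (reverse), chrX:10145096-10145155 (forward), chrX:10732062-10732121 (reverse) and chrX:8624533-8624592 (reverse).
C18A11.t2 upstream: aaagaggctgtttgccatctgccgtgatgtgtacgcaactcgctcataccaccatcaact
F09B9.t1 upstream: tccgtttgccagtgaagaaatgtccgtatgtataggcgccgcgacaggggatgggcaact
T01C1.t1 upstream: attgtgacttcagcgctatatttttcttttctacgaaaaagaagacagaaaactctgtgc
K01A12.t3 upstream: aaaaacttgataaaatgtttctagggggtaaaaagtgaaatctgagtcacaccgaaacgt

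Over the 10 arginine genes these upstream windows were all distinct, and base-by-base identity in the 45 pairs, without gaps, was 15 to 33.3% with a median of 26.7%. The alanine genes, whose signals spread less, had upstream windows as different from each other, with identities of 18.3 to 41.7% and a median of 30%. Whether upstream sequence bears on the signal was not tested.

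**Figure D5:**
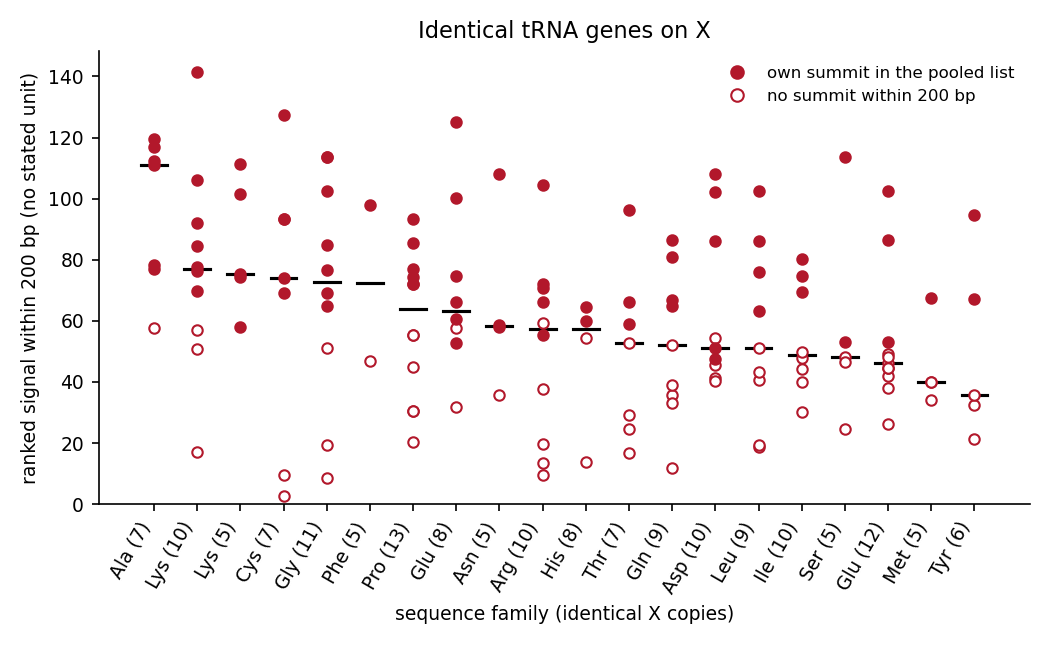
Ranked signal within 200 bp of each X gene in the 20 families with at least 5 identical X copies, ordered by median (black line), with filled points for genes with an own summit. Copies of 1 sequence spread widely, as in the arginine family from 9.59 to 104; copies with no ranked peak are not drawn.

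Genes with identical copies were compared with genes that have none. Of the 219 X genes with an identical copy somewhere in the nuclear genome, 131 were bound (59.8%, interval 53.2 to 66.1%), with a median signal of 61.0. Of the 57 genes with a sequence of their own, 25 were bound (43.9%, 31.8 to 56.7%), with a median of 34.7. The intervals overlap, and the gap was 16.0 percentage points in the pooled list, 5.58 points without replicate 1 and 11.5 points without replicate 2. Box A was found in 210 of the 219 copied genes and 45 of the 57 others, and box B in 216 and 52. The part of this in the gap was not tested. Copied genes also had fewer unique short sequences. Within a gene and 100 bases on each side, the median share of 50-base words found once in the genome was 83.9% for copied genes and 94.6% for the others. Over all X genes that share had the same median, 84.8%, for bound and not bound genes. In 4 groups of 69 genes from the least to the most unique, 30, 48, 40 and 38 genes were bound, or 43.5%, 69.6%, 58.0% and 55.1%. For the 43 sequences present both on X and elsewhere, 112 of 185 X copies were bound (60.5%) and 93 of 223 copies elsewhere (41.7%). The share was higher on X for 24 of them, lower for 12 and equal for 7, and the median signal was higher on X for 29 of 40.

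Solitary and clustered genes were then set against their counterparts elsewhere, a split chosen after its values were seen. Tandem genes, in runs with gaps of at most 1 kb, made up 135 genes in 54 clusters on X, and 141 genes were solitary. Solitary genes were bound in 77 of 141 cases on X (54.6%, interval 46.4 to 62.6%) and in 60 of 235 elsewhere (25.5%, 20.4 to 31.5%). Clustered genes were bound in 79 of 135 cases on X (58.5%, 50.1 to 66.5%) and in 60 of 101 elsewhere (59.4%, 49.7 to 68.5%). All 77 bound solitary X genes had an own summit, and so did 59 of the 60 elsewhere. Both replicate lists gave the same order for solitary genes, with 31 of 141 on X and 22 of 235 elsewhere in replicate 1, and 35 and 19 in replicate 2. Among solitary genes with identical copies, 69 of 113 were bound on X (61.1%, 51.8 to 69.5%) and 44 of 163 elsewhere (27.0%, 20.8 to 34.3%). Among solitary genes with no copy the values were 8 of 28 on X (28.6%, 15.3 to 47.1%) and 16 of 72 elsewhere (22.2%, 14.2 to 33.1%), and those intervals overlap. Clustered genes with copies were bound in 62 of 106 cases on X (58.5%, 49.0 to 67.4%) and 57 of 87 elsewhere (65.5%, 55.1 to 74.7%). For clustered genes with no copy the values were 17 of 29 on X (58.6%, 40.7 to 74.5%) and 3 of 14 elsewhere (21.4%, 7.57 to 47.6%). Of these 17 and 3 genes, 11 and 3 had own summits. The intervals overlap in both cases.

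Within X, clustered genes were bound 3.91 percentage points more often than solitary genes. That direction turned round when only own summits counted, with 52 of 135 clustered genes (38.5%) and 77 of 141 solitary genes (54.6%). Median signals were 52.4 for clustered and 63.2 for solitary genes. Most clusters were bound or not bound as a whole, 29 with all genes bound, 22 with none and 3 with some by a rule whose 1 kb window spans neighbours. Of the 54 clusters, 40 held 1 isotype, 31 held identical copies and 31 ran on both strands.

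The largest clusters differed from each other. At F22F1 (chrX:8154445-8156707) 6 genes for serine, aspartate, methionine and isoleucine tRNAs had 2 pooled summits, at F22F1.t4 with a signal of 53.0 and at F22F1.t6 with 78.3, and 5 genes counted as bound. At F28H6 (chrX:14135045-14137010) 6 identical histidine genes in alternating orientation had no summit. F28H6.t2 at its left end had a ranked signal of 54.4, F28H6.t5 at its right end had 13.9, and the 4 inner genes had no ranked peak. None of the 50-base words around F28H6.t3 and F28H6.t4 was unique, and the shares were 18.8% at F28H6.t6 and 35.4% at F28H6.t7, and the part of this in the missing peaks was not tested. The other copies of this sequence on X, C49F5.t1 and C06G1.t1, had unique shares of 81.2% and 82.5%, and were bound with signals of 64.4 and 60.1. Inside ajm-1, which encodes an apical junction protein, 5 glutamine genes, 3 of them identical, all counted as bound through 1 summit at H08J11.t3, with a signal of 86.6. The same word count was 50% or more for all but 5 of the 276 genes.

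Introns hosted 95 of the X tRNA genes, in 67 protein-coding genes, of which 16 held at least 2. Bound genes were 58 of 95 in introns (61.1%, interval 51.0 to 70.2%) and 97 of 180 between protein-coding genes (53.9%, 46.6 to 61.0%), and the intervals overlap. For solitary genes the shares were nearly the same, 54.2% in introns and 54.3% between genes. Orientation made little difference, with 29 of 50 bound on the strand of the host and 29 of 45 on the opposite strand. Elsewhere in the genome 65 of 188 intronic genes (34.6%) and 51 of 139 intergenic genes (36.7%) were bound.

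Host genes varied. In pix-1, a gene for a PAK-interacting exchange factor, all 3 lysine genes had own summits, K11E4.t4 with a signal of 72.1, K11E4.t5 with 141 and K11E4.t6 with 76.4. The aspartate gene F38G1.t2 in egl-17, which encodes a fibroblast growth factor ligand, had 108. Both serine genes in cat-1, the vesicular monoamine transporter gene, were bound, with 85.5 and 73.5, and both alanine genes in him-4, the hemicentin gene, shared a peak of 112. None of the 3 tRNA genes was bound in each of deg-1 and unc-58, which encode ion channel subunits, wrt-9, a hedgehog-related gene, and srxa-9, of a chemoreceptor family. Of the 67 hosts, 12 had a pooled summit within 1 kb of a start site of their own. Of the 2731 protein-coding genes on X, 2.53% did. Hosts are defined by holding a tRNA gene, and summits at those tRNA genes were not left out of the count. The values therefore cannot show whether host start sites have summits of their own more often than other genes, which was not tested.

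Genes known from suppressor genetics were among the members. sup-7, sup-21, sup-28 and sup-33 are tryptophan tRNA genes at which mutations that read amber stop codons arose, and here they are 4 copies of identical sequence. sup-7 had a signal of 84.6 and sup-28 in trk-1, a receptor tyrosine kinase gene, had 56.1, and both had own summits. sup-33, in the same host, had 44.0 and was bound only through a distant summit, and sup-21 was not bound and had no peak in the pooled ranked list.

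Bound shares were also counted along the chromosome. The stretch from 8 to 9 Mb held the most genes, with 36 of 51 bound (70.6%). Only 22 of the 51 had an own summit (43.1%), against 46.7% of all X tRNA genes. Counts in other stretches were small. Between 1 and 2 Mb 2 of 12 genes were bound (interval 4.70 to 44.8%). Between 6 and 7 Mb 6 of 6 were bound (61.0 to 100%), and between 16 and 17 Mb 12 of 32 (22.9 to 54.7%). On the other chromosomes the shares ran from 29.8% on II to 42.2% on III, so the X share was above all 5. The intervals of III (30.9 to 54.4%) and IV (28.9 to 51.1%) overlap that of X (50.6 to 62.2%), and those of I, II and V do not.

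The protein genes of tRNA transcription and processing were also looked up. Of a list of 10, which holds the RNA polymerase III subunit genes rpc-1, rpc-2, rpac-19 and rpac-40, the TFIIIB genes brf-1 and tbp-1, the TFIIIC genes tftc-3 and tftc-5, the polymerase III repressor gene mafr-1 and the tRNA 3′ processing nuclease gene hoe-1 (elac-2 in RefSeq), 0 were bound, a count near what the 2.99% of all nuclear genes would give for so short a list. The highest ranked signal among them was 49.4 at mafr-1, below the median of the X tRNA genes.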

How the data were processed

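The authors deposited peak lists on ce11 for each replicate and for both replicates. Positions, summit offsets, a signal value per peak with no stated unit, and −log10 IDR were used as deposited. Per the labels' text the peaks were compared by IDR; the aligner and peak caller were not given in the sources used here. All 867 pooled thresholded peaks are in the ranked list at an IDR of at most 0.01, but 147 of its 1014 peaks past that value are not in the thresholded list, none near an X tRNA gene. The replicate signal columns were identified by exact matches, 35740 for replicate 1 and 41183 for replicate 2, with none in the other replicate.

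Genes came from Ensembl release 115, isotypes and genome sequence from RefSeq WBcel235. Analysis used Python 3.11.15, numpy 2.4.6, pandas 2.3.3 and scipy 1.17.1, with figures from matplotlib 3.10.9. Box A was searched by a degenerate pattern that allows for a variable D loop, widened after a stricter form found few genes. Code was tested on simulated data. With 1 group there was no test; shares have 95% Wilson intervals. Named genes were the strongest overall and per isotype, the 3 largest clusters (of 2 clusters of 5 genes, the one with more total signal), genes at the edge of the rule, extremes of each large family and of the replicate ratio; the hosts, the suppressor loci, the alanine, arginine and lysine copies and ZK678.t4 were chosen after their values were seen. The members and lists were chosen with earlier results of these data known. Alternatives changed the window, list, IDR, assignment and replicates. Control libraries and signal tracks were not analysed here.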

Additional observations from a re-analysis of the deposited data

How the results depend on the processing

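Of 89 alternatives 56 kept their direction, with counts within 1.5-fold of the reported count and other values within 1 SD of the replicate lists; 29 moved further and 4 reversed. Counts within 1.5-fold still changed: bound X genes numbered 129 within 200 bp and 119 for the nearest gene only, and those elsewhere 100 and 91. No paired analysis was possible because there was 1 group. The reversed results were the share of clustered minus solitary X tRNA genes, 3.91 percentage points, which became -16.1 within 200 bp, -7.20 within 500 bp and -23.5 both for the nearest gene only and for own summits of the nearest gene. It was 9.55 in the conservative list and ran from 2.46 to 8.51 with a replicate left out. Bound X genes numbered 75 and those elsewhere 31 at an IDR of 0.001, 81 X genes were bound without genes that share a summit, and leaving out a replicate gave 64 to 80 on X and 33 to 38 elsewhere. The gap between X and elsewhere was 11.9 to 19.2 points with a replicate left out. The intronic minus intergenic gap was 2.87 within 200 bp and 2.11 within 2 kb. The gap by copy number was 11.3 within 500 bp, 10.4 within 2 kb, 9.93 at the stricter IDR and 5.58 to 11.5 without a replicate. The gap to pseudogenes, 56.5 points, was 46.7 within 200 bp, 51.1 within 500 bp, 27.2 at the stricter IDR, 43.1 for the nearest gene only and 23.2 to 29.0 without a replicate. Median signals were 27.8 to 31.2 on X and 23.3 to 27.2 elsewhere in lists of 1 replicate, which have their own scale, and elsewhere also 52.6 within 100 bp and 51.5 in the paired list. The cause of these changes was not tested. The alternatives on shared summits, isotype weights, own and nearest summits, host strand and the paired list were chosen after seeing the data. Depth is unknown, so a gene without a peak is not shown to be free of CEH-40.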
